A study of Mus musculus with 16 samples.

Results

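Dual specificity phosphatases that act on mitogen-activated protein kinases (MAPKs) were followed in neutrophils of the blood and the lung of septic mice. The genes were Dusp1, Dusp2, Dusp4, Dusp5, Dusp6, Dusp10 and Dusp16, which were chosen by name, with earlier results of these data known. Thus 7 of the 49315 genes in the count files are described here, and all 7 had a row in each of the 24 files. The neutrophils were primary cells sorted as Ly6G+/CD11b+/CD45.2+ from WT mice and from αD KO mice, which were made to lack Itgad, the gene of the αD subunit of the β2 integrin αDβ2. The 4 baseline groups (0h) came from naïve, untreated mice, namely WT blood, WT lung, αD KO blood and αD KO lung. The other 4 groups were the same genotypes and tissues 12 hours after CLP (cecal ligation and puncture), a surgical model of polymicrobial abdominal sepsis, which was performed in male mice of 8 to 12 weeks. No sham-operated group is among these samples, so surgery and sepsis cannot be told apart in any comparison over time.

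MAPK pathways are kinase cascades in which a MAP3 kinase activates a MAP kinase kinase, which activates ERK, JNK or p38 by phosphorylating a threonine and a tyrosine. A dual specificity phosphatase removes both phosphates and so ends the signal. Many of these phosphatases are themselves transcribed in response to MAPK activity, which makes them a negative feedback. In neutrophils, p38 and ERK are known for their part in priming, degranulation and cytokine production.

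The members differ in where they act and on which kinase. Dusp1 (ENSMUSG00000024190, chr17:26505590-26508519, minus strand) encodes a nuclear phosphatase of p38, JNK and ERK that is transcribed within minutes of stress and is also a glucocorticoid target. Dusp2 (ENSMUSG00000027368, chr2:127336159-127338376, plus strand) and Dusp4 (ENSMUSG00000031530, chr8:34807297-34819894, plus strand) encode nuclear, inducible phosphatases, the former best known from activated leukocytes. Dusp5 (ENSMUSG00000034765, chr19:53529109-53542431, plus strand) encodes a nuclear phosphatase of ERK, and Dusp6 (ENSMUSG00000019960, chr10:99263231-99267488, plus strand) the cytoplasmic phosphatase of ERK. Dusp10 (ENSMUSG00000039384, chr1:184013302-184075636, plus strand) and Dusp16 (ENSMUSG00000030203, chr6:134715468-134792625, minus strand) encode phosphatases that prefer JNK and p38. All positions are those of the count files, on GRCm38. By the positions in the count files, Dusp10 overlaps 1700056E22Rik and Dusp16 overlaps Gm36328, each in antisense. The sources used here do not state a strand setting for the counting, so reads of such pairs cannot be told apart. GENCODE vM21, whose Dusp1 model differs from that of the files, also has genes over Dusp1 (the coding Ergic1 among them) and an antisense gene over Dusp5, while by the positions in the files no gene overlaps either. The overlapping genes held 46 counts against 530 for Dusp10 and 614 against 63682 for Dusp16 over the 24 libraries.

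The stretches before the RefSeq start sites of the 4 members on which the results turn most are printed below on their own strand, 5′ to 3′ (GRCm38.p6), to show which short motifs lie beside these genes. Capitals mark the cyclic AMP response element (CRE, TGACGTCA), its core (TGACG) and the serum response element, on either strand. Bases that the count files place inside a gene were left out. The stretches are chr17:26508520-26508722 for Dusp1, chr19:53528895-53529108 for Dusp5, chr10:99262981-99263230 for Dusp6 and chr6:134792629-134792878 for Dusp16.
Dusp1: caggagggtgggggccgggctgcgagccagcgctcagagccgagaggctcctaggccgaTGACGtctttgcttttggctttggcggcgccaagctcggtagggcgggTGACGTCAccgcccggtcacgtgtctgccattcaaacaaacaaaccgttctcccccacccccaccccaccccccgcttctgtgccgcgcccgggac
Dusp5: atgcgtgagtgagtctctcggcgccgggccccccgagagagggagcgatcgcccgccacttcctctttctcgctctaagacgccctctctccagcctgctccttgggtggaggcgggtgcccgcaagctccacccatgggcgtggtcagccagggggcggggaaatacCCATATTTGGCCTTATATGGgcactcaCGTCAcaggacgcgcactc
Dusp6: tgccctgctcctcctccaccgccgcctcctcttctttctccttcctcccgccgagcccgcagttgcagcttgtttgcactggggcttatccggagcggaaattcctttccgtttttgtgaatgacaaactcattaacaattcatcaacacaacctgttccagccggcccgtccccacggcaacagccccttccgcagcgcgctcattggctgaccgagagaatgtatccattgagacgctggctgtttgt
Dusp16: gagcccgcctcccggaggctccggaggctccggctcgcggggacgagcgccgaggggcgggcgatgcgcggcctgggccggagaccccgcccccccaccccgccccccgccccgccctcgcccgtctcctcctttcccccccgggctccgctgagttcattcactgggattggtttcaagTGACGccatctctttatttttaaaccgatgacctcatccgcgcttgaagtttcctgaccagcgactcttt

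Counted back from the RefSeq start (the base before it is -1), the Dusp1 promoter held a full CRE at -143 to -136 and another CRE core at -191 to -187. The Dusp5 promoter held 2 serum response elements side by side, at -82 to -73 and -72 to -63, and a CRE core at -55 to -51. The Dusp16 promoter held a CRE core at -70 to -66. Among all 32851 promoters, the 250 bases before the start held a full CRE in 1.55%, a CRE core in 17.8% and a serum response element in 1.47%. AP-1 (TGANTCA, in 6.75% of promoters) and NF-kB motifs (7.25%) were searched as well. The 250 bases of Dusp2, Dusp6 and Dusp10 held none of these letters, nor did those of Dusp1, Dusp5 and Dusp16 hold AP-1 or NF-kB. The full CRE contains the core, so a promoter with the former also counts for the latter. A match describes letters in this window and is not evidence that a factor was bound.

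Each group had 3 count files, listed under 2 samples. Sample 1 had 2 files, named libraries 1a and 1b below, and sample 2 had 1 file, named library 2. Counts of 1a and 1b differed far beyond sampling noise in each group (chi-square divided by its degrees of freedom, 89.4 to 565.1), so they are not 1 library listed 2 times. That comparison covers counting error only and cannot show whether 1a and 1b are separate preparations. Each file was taken as a library, with n = 3, and fits with the 2 files of sample 1 summed are given where they change a call between groups. The interaction terms below were not fitted with summed files. The authors describe the sequencing as done in triplicates. Nothing states that the 3 came from separate animals, so the p-values measure only the spread between these libraries, which may be partly technical. Library totals were 5753476 to 17976890 counts in the 8 libraries 1b and 16565779 to 29984954 in the other 16, and in 8 of 8 groups library 1b had the fewest counts and the most genes with a count. Itgad was measured as a check of the genotype. It was at 0.0583 to 3.66 CPM (counts scaled to the library total with edgeR's TMM factors) in the 12 WT libraries and at 12.5 to 102 CPM in the 12 libraries labelled αD KO. Since reads were summed over whole genes, exons that were deleted cannot be told from exons that remain, and these libraries are called "labelled αD KO" below. All 8 neutrophil markers had counts in every group, and their summed level was 29204 to 212326 CPM. Other cell types' markers were measured as well, with sums of 482 to 1742 CPM for monocytes and macrophages, 35.2 to 1350 CPM for B cells and 7.88 to 1142 CPM for lung structural cells. The sums were 7.69 to 373 CPM for T and NK cells, 4.81 to 667 CPM for platelets, 27.4 to 9083 CPM for erythroid cells and 3.17 to 152 CPM for eosinophils and mast cells. Markers at 0 in a whole group were Prg2 and Mcpt4 in WT blood at 12 hours, Prg2 in WT lung at 0h, Prg2, Mcpt4, Fcer1a and Sftpc in labelled αD KO blood at 12 hours and Mcpt4 in labelled αD KO lung at 0h.

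Some labelled αD KO lung libraries stand apart. On an axis drawn through the 1338 other genes that changed in WT lung, where 0 is the mean of WT lung at 0h and 1 that at 12 hours, 0h library 2 lay at 1.026. The 12-hour libraries 1a and 2 lay at 0.0994 and 0.188, while 12-hour library 1b lay at 0.826. Each of the former 3 thus lay nearer to the other time than to its own label. In WT lung, 12-hour library 1b lay between, at 0.661. Each WT lung library was placed against means that left it out, so 1 is there the mean of 12-hour libraries 1a and 2. The members' fold changes in labelled αD KO lung are given with these 3 libraries and without them, while levels, ratios and rank correlations cover all 24 libraries. They were picked by their measured values, so the fits without them are a description and not an independent test. The labels were kept. Whether the time labels of these libraries were exchanged was not tested, and every value of labelled αD KO lung over time, against blood or against WT depends on them.

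The members covered a wide range of levels. Compared per length, as CPM per kilobase of exon (RPKM), Dusp1 ranked first in all 8 groups, with group means of 882 (WT blood at 12 hours) to 6231 RPKM (WT lung at 12 hours), and its libraries did not overlap those of the next member in any group. In the WT groups and labelled αD KO blood at the baseline, the order was Dusp1, Dusp6, Dusp5, Dusp2 and Dusp16, for example 3497, 139, 17.3, 11.4 and 1.89 RPKM in WT blood. In that order only Dusp5 and Dusp2 overlapped. At 12 hours the order was no longer the same. In WT lung it was Dusp1, Dusp2, Dusp5, Dusp16 and Dusp6, at 6231, 293, 249.96, 88.7 and 28.97 RPKM, and each of the last 4 overlapped its neighbour. In labelled αD KO blood, Dusp16 (21.2 RPKM) and Dusp6 (19.3 RPKM) ranked next after Dusp1 and overlapped. Dusp4 and Dusp10 held the last places in every group, at 0 to 0.779 RPKM and at 0.125 to 0.691 RPKM.

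**Figure D1:**
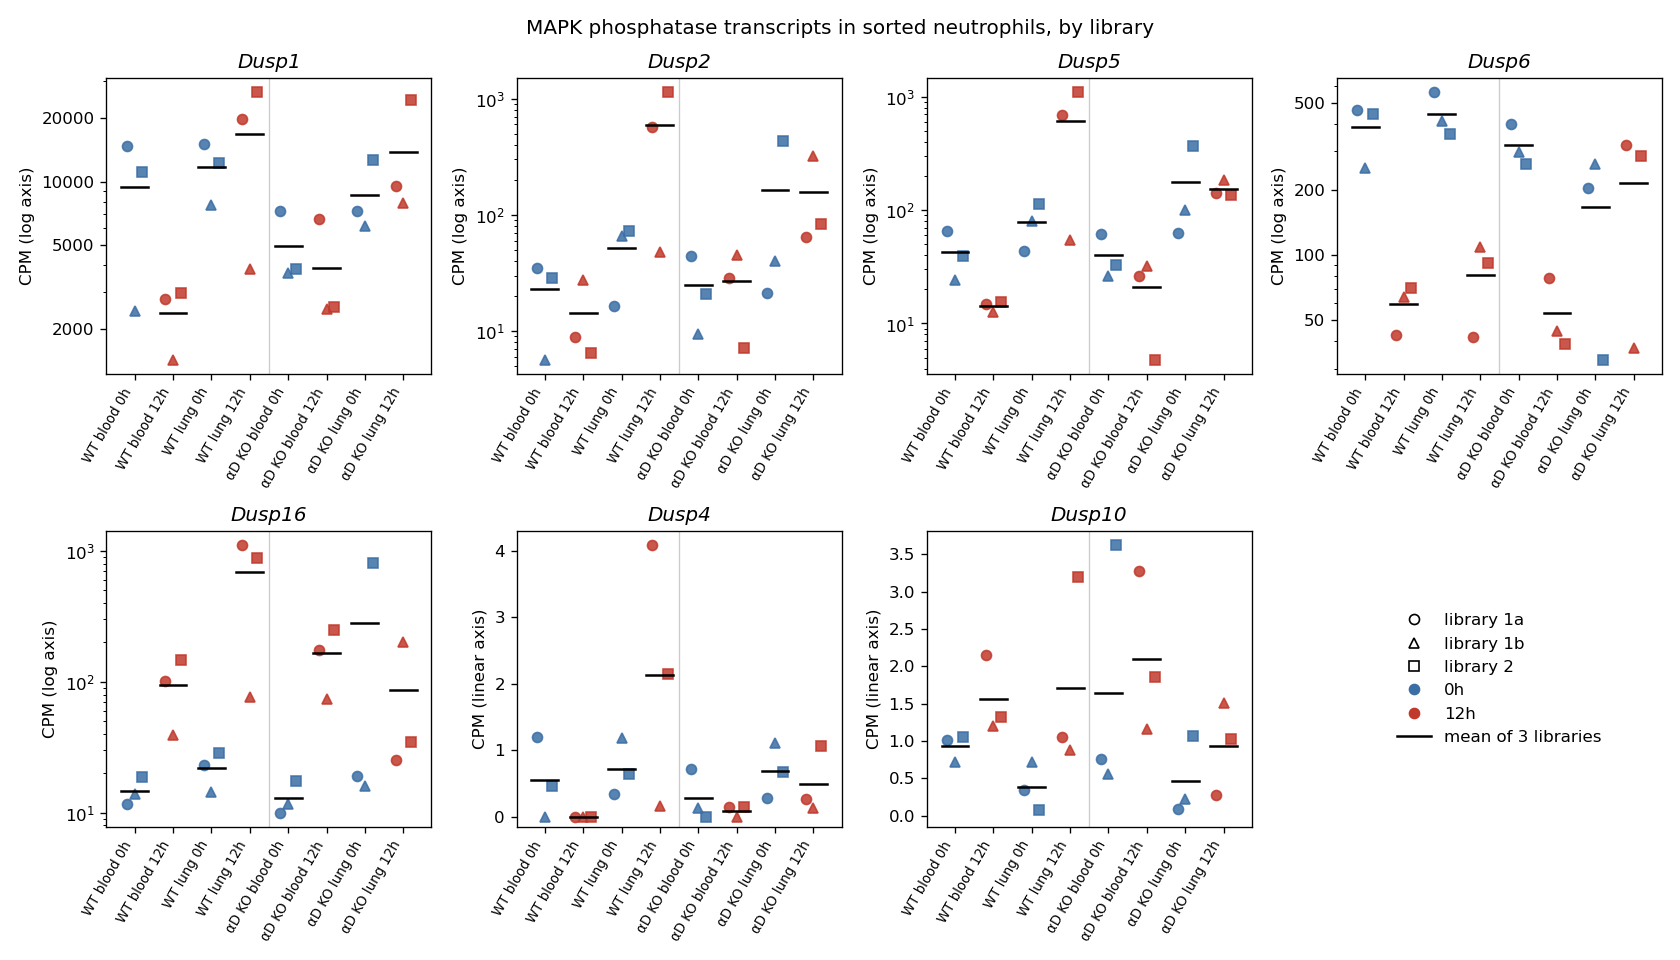
Levels of the 7 phosphatase transcripts in each of the 24 libraries, in CPM on a log axis (linear for Dusp4 and Dusp10), with circles for library 1a, triangles for 1b, squares for 2, and a line at the mean of 3 libraries. Dusp6 falls and Dusp16 rises from 0h to 12h in WT blood, WT lung and labelled αD KO blood without overlap, while in labelled αD KO lung single libraries lie with the other time.

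Neutrophils of WT blood had less Dusp6 and Dusp5 RNA and more Dusp16 RNA at 12 hours after CLP than at the baseline. This comparison asks how circulating neutrophils differ after the onset of sepsis. In bulk RNA of sorted cells, fewer cells of a type and less RNA per cell cannot be told apart. DEGs were genes past 2 thresholds in edgeR's quasi-likelihood test, an absolute log2 fold change over 1 and an adjusted p (Benjamini-Hochberg) under 0.05, and 13.5% of the 14625 genes tested passed both in WT blood. Of the members, 6 passed the filter on low counts and 3 were DEGs, 1 higher and 2 lower (7.75% of all genes tested were called higher and 5.75% lower). The median log2 fold change of the 6 was -1.23, against -0.15 over all genes tested.

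Dusp6 was at 464, 252 and 446 CPM in WT blood libraries 1a, 1b and 2 at the baseline and at 42.7, 64.3 and 70.8 CPM at 12 hours. All 3 septic libraries lay below all 3 baseline libraries, and the fitted level was 7.28-fold lower (log2 fold change -2.86 ± 0.38, adjusted p = 0.00474). Dusp5 went from 65.00, 24.01 and 39.7 CPM to 14.99, 12.5 and 15.4 CPM. The groups did not overlap here either, and Dusp5 was 3.39-fold lower (log2 fold change -1.76 ± 0.33, adjusted p = 0.0162). Dusp16, in contrast, went from 11.6, 13.8 and 18.7 CPM to 101, 39.2 and 146 CPM. Every septic library lay above every baseline library, and Dusp16 was 5.38-fold higher (log2 fold change 2.43 ± 0.43, adjusted p = 0.0127).

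Dusp1 in WT blood went from 14773, 2427 and 11092 CPM at the baseline to 2756, 1414 and 2967 CPM at 12 hours. Baseline library 1b lay below 2 septic libraries, so the groups overlapped. The log2 fold change of -2.16 ± 0.63 missed the threshold (adjusted p = 0.0599), and it also missed with no filter on low counts, with all 8 groups in the fit and without any 1 library other than baseline 1b (adjusted p = 0.805, 0.154 and 0.142 to 0.576). It passed with the library number as a block (-1.91, adjusted p = 0.0260) or without baseline library 1b (-2.59, adjusted p = 0.00337). Dusp1 also passed by DESeq2, which called 22.3% of its genes (adjusted p = 0.000523), and in edgeR with RLE scaling (0.0463), with at least 10 counts in every library (0.00921), with the files of sample 1 summed (0.00331) and with libraries 1a and 2 alone (0.00362). Library 1b had the lowest Dusp1 value in 8 of 8 groups, beside its low total and high number of genes, and the part of these in Dusp1 was not tested. Dusp2 was at 34.7, 5.57 and 28.3 CPM at the baseline and at 8.92, 27.7 and 6.402 CPM at 12 hours. Its libraries 1a and 2 were lower and library 1b was higher after CLP, and no change was called (log2 fold change -0.69 ± 0.76, adjusted p = 0.583). With libraries 1a and 2 alone, Dusp2 was lower by the same test (log2 fold change -2.27, adjusted p = 0.00482). Counting members whose groups did not overlap, there were 4 of 6 (34.7% of all genes tested), the fourth being Dusp10. The 3 calls were lost when baseline library 1a or 2, or septic library 1a or 2, was left out (adjusted p up to 0.165 for Dusp6, 0.301 for Dusp5 and 0.170 for Dusp16), and all kept their direction. With all 8 groups in a single fit the call of Dusp6 held and those of Dusp5 and Dusp16 were lost (adjusted p = 0.335 and 0.229). The number of DEGs over all genes, 1975 with every library, was 150 without baseline library 1a, 46 without baseline library 2, 19 without septic library 1a and 2 without septic library 2. Markers of neutrophils summed to 29204 to 49662 CPM at the baseline and to 116284 to 212326 CPM at 12 hours. S100a8 and S100a9 were the largest parts of this sum (group means 11699 to 73961 and 10872 to 58471 CPM). Csf3r and Cxcr2 of the same list fell, from 8872 to 1693 and from 2476 to 2165 CPM, while its other markers rose. Markers of B cells had summed levels of 265 to 1211 CPM at the baseline and 41.95 to 231 CPM at 12 hours, and platelet markers summed to 39.8 to 132 CPM and 5.92 to 30.9 CPM. Most of the B cell sum was Ighm, which fell from a group mean of 687 to 75.8 CPM. Cd79a and Pax5 rose, from 10.5 to 14.2 and from 0.825 to 1.05 CPM, and the other B cell markers fell. T and NK cell markers summed to 19.1 to 33.3 CPM and 14.4 to 16.6 CPM, and lung structural markers to 20.3 to 283 CPM and 17.7 to 18.9 CPM. None of these 5 sums overlapped between the times. Their part in these changes was not tested.

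Neutrophils of WT lung showed the same pair of changes, lower Dusp6 and higher Dusp16. The change of Dusp16 differed between the tissues by 2.23 ± 1.00 on the log2 scale, which did not pass the interaction test (adjusted p = 0.876). In this comparison 9.02% of 14859 genes tested were DEGs (5.24% higher and 3.78% lower), and of the 7 members, all tested, 1 was higher and 1 was lower. The median of the 7 log2 fold changes was 2.05, against 0.03 over all genes tested. Dusp16 went from 23.1, 14.5 and 28.7 CPM to 1113, 76.3 and 886 CPM. The lowest septic library, 1b, was still above all baseline libraries, and the fitted rise was 27.4-fold (log2 fold change 4.78 ± 0.83, adjusted p = 0.0165). Dusp6 went from 563, 415 and 360.3 CPM to 42.02, 109 and 91.8 CPM. The groups were apart, with a fitted level 5.26-fold lower (log2 fold change -2.39 ± 0.53, adjusted p = 0.0311).

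Dusp2 and Dusp5, both encoding nuclear phosphatases, were very uneven in septic WT lung. Dusp2 was at 16.4, 65.2 and 72.9 CPM at the baseline and at 572, 47.95 and 1143 CPM at 12 hours. Dusp5 was at 43.5, 79.7 and 113 CPM and at 691, 54.2 and 1109 CPM. In both genes septic libraries 1a and 2 lay far above the baseline and septic library 1b lay within it, and neither was called (log2 fold changes 3.30 ± 0.97, adjusted p = 0.0711 for Dusp2 and 2.77 ± 0.85, adjusted p = 0.0794 for Dusp5). Without septic library 1b, both passed, with adjusted p = 0.00671 for Dusp2 and 0.00274 for Dusp5, and the Wald test of DESeq2 called them with all libraries, as it did 18.6% of the genes it tested (adjusted p = 0.00108 and 0.00340). By edgeR with the files of sample 1 summed (2 libraries against 2), both were called as well, among 2337 of 19014 genes. With no filter on low counts both were called among 1331 of 42259 genes. Dusp1 was at 14988, 7744 and 12272 CPM at the baseline and at 19914, 3844 and 26655 CPM at 12 hours. The septic libraries lay on both sides of the baseline, and the log2 fold change was 0.37 ± 0.63, adjusted p = 0.768. Counting groups without overlap gave 3 of 7 members (28.5% of all genes tested), Dusp16, Dusp6 and the low Dusp10. The calls of Dusp16 and Dusp6 were lost without any 1 of the 5 libraries other than septic 1b (adjusted p up to 0.241 and 0.247), and that of Dusp6 also with all 8 groups in a single fit (0.0584). The number of DEGs over all genes, 1340 with every library, was 0 without baseline library 1a or 2 or septic library 1a, 27 without septic library 2, 769 without baseline library 1b and 3941 without septic library 1b. Neutrophil markers summed to 37668 to 53389.6 CPM at the baseline and 78712 to 143353 CPM at 12 hours, without overlap. S100a8 and S100a9 were the largest parts of this sum (group means 13114 to 43132 and 12417 to 38006 CPM). Csf3r and Cxcr2 fell, from 9700 to 2957 and from 3557 to 1504 CPM, while the other neutrophil markers rose. Lung structural markers summed to 63.1 to 217 CPM at the baseline and 121 to 381 CPM at 12 hours, and B cell markers to 419 to 782 and 35.2 to 84.96 CPM, the latter without overlap. Their part was not tested.

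The neutrophils of labelled αD KO blood also had lower Dusp6 and higher Dusp16 after CLP. Of 14156 genes tested, 8.75% were DEGs (3.75% higher and 4.99% lower), and of 6 members tested 1 was higher and 1 was lower. Dusp16 went from 9.88, 11.7 and 17.3 CPM to 175, 73.6 and 249 CPM, a 10.6-fold rise (log2 fold change 3.41 ± 0.45, adjusted p = 0.00589). Dusp6 went from 401, 298 and 262 CPM to 78.3, 44.5 and 38.9 CPM, a level 6.995-fold lower (log2 fold change -2.81 ± 0.36, adjusted p = 0.00543). Neither pair of groups overlapped (32.2% of all genes tested did not). Both calls held without each of 5 libraries and were lost without baseline library 1a, with adjusted p = 0.0582 for Dusp6 and 0.0679 for Dusp16. Both were also lost with all 8 groups in a single fit (0.0646 and 0.127), which called 64 genes. The number of DEGs over all genes, 1238 with every library, was 74 without that library, 682 and 571 without baseline library 1b or 2, and 260 and 167 without septic library 1a or 2.

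The remaining members of labelled αD KO blood did not pass the threshold. Dusp5 was at 61.1, 26.03 and 32.7 CPM at the baseline and 26.1, 32.4 and 4.72 CPM at 12 hours, with library 1b higher and the other two lower (log2 fold change -1.07 ± 0.65, adjusted p = 0.326). Dusp1 was at 7243, 3674 and 3849 CPM and 6658, 2474 and 2531 CPM (log2 fold change -0.56 ± 0.45, adjusted p = 0.455). Dusp2 was at 44.5, 9.36 and 20.9 CPM and 28.7, 45.03 and 7.07 CPM, with a log2 fold change of 0.02. The groups of these 3 genes overlapped. The median log2 fold change of the 6 tested members was -0.27, against -0.14 over all genes. Dusp10 had its highest value of all libraries in baseline library 2, at 3.63 CPM, against 0.757 and 0.563 CPM in 1a and 1b. That library also had the highest T and NK cell sum, 373 CPM, against 30.9 and 15.1 CPM. Its eosinophil and mast cell sum was 152 CPM, against 27.1 and 11.9 CPM. B cell markers summed to 319.7 to 1349.9 CPM at the baseline and 37.5 to 136 CPM at 12 hours, and platelet markers to 24.98 to 667 and 4.92 to 43.8 CPM. Neutrophil markers summed to 35301 to 60841 and 122823 to 153225 CPM, without overlap, as for the B cell markers. S100a8 and S100a9 were the largest parts of the neutrophil sum (group means 16777 to 64238 and 16037 to 44178 CPM). Csf3r and Cxcr2 fell, from 7260 to 1666 and from 2287 to 1664 CPM, while the other neutrophil markers rose. The part of all these markers was not tested.

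The ratio of Dusp16 to Dusp6 within a library does not depend on the scaling between libraries, and it is given here for each library as a description. Per length, Dusp16 was at 0.00884 to 0.0286 times the level of Dusp6 in the 9 baseline libraries of WT blood, WT lung and labelled αD KO blood. In the 9 libraries of the same groups at 12 hours it was at 0.218 to 9.49 times, so that the lowest septic ratio lay above the highest baseline ratio. The ratio was above 1 in 3 of these 9 libraries, namely WT lung 1a (9.49) and 2 (3.46) and labelled αD KO blood 2 (2.29). In labelled αD KO lung at the baseline, libraries 1a and 1b had ratios of 0.0340 and 0.0218 and library 2 a ratio of 8.87. At 12 hours the ratios there were 0.0284 in library 1a, 1.93 in 1b and 0.0436 in 2. The libraries that stand apart by the 1338 other genes were therefore the ones with the ratio of the other time.

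**Figure D2:**
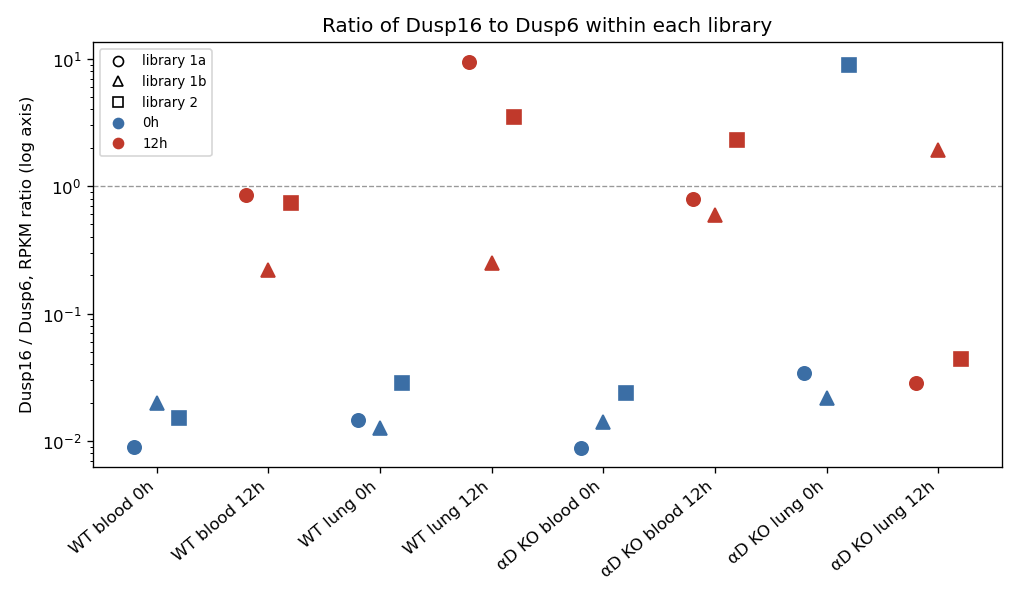
Ratio of Dusp16 to Dusp6 (RPKM over RPKM, log axis) in each of the 24 libraries, with symbols for the library and colours for the time. The 0h libraries of WT blood, WT lung and labelled αD KO blood lie at 0.00884 to 0.0286 and their 12h libraries at 0.218 to 9.49, and in labelled αD KO lung 1 library at 0h and 2 at 12h lie with the other time.

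In labelled αD KO lung no gene of 17939 tested was a DEG between 12 hours and the baseline (0.0% called by edgeR, while 72 genes had an unadjusted p under 0.05, and DESeq2 called 0), and so no member was. Dusp16 was at 19.2, 16.02 and 809 CPM at the baseline and at 25.3, 201 and 34.5 CPM at 12 hours (log2 fold change -1.34 ± 1.52, adjusted p = 0.9999). Dusp6 was at 203, 263 and 32.7 CPM and at 319, 37.4 and 284 CPM (log2 fold change 0.25 ± 0.87). In both genes baseline library 2 and septic library 1b lay to the same side of all other libraries, high in Dusp16 and low in Dusp6. These 2 were close to each other in Dusp6 (32.7 and 37.4 CPM) and less so in Dusp16 (809 and 201 CPM). No member had groups without overlap (2.88% of all genes tested did not overlap between the times). Dusp2 was at 21.3, 40.1 and 428 CPM and at 64.7, 322 and 83.4 CPM, with the same 2 libraries highest. Dusp5 was at 63.2, 100.3 and 365 CPM and at 141, 183 and 137 CPM, high in baseline library 2 and even across the septic libraries. Dusp1 was at 7219, 6133 and 12635 CPM and at 9487, 7871 and 24265 CPM (log2 fold change 0.70 ± 0.57), with library 2 the highest at both times.

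Without baseline library 2 and septic libraries 1a and 2, the fit compares 1 septic library with 2 baseline libraries and assumes that the lone library varies like the others. Since the libraries left out were picked on an axis of genes that change with time in WT lung, a direction like that of WT was largely set by the choice, and the values are given with no test. The log2 fold change of Dusp16 was then 3.59 ± 0.67, and that of Dusp2 was 3.49 ± 0.69. Dusp6 came to -2.55 ± 0.81, Dusp5 to 1.25 and Dusp1 to 0.32. Lung structural markers summed to 183 to 1142 CPM at the baseline and 57.01 to 217 CPM at 12 hours, lowest in baseline library 2 and in septic library 1b. B cell markers were low in the same 2 libraries, at 53.9 CPM in the former and 44.03 CPM in the latter, against 278 to 519.8 CPM in the other 4. Their part in these values was not tested.

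**Figure D3:**
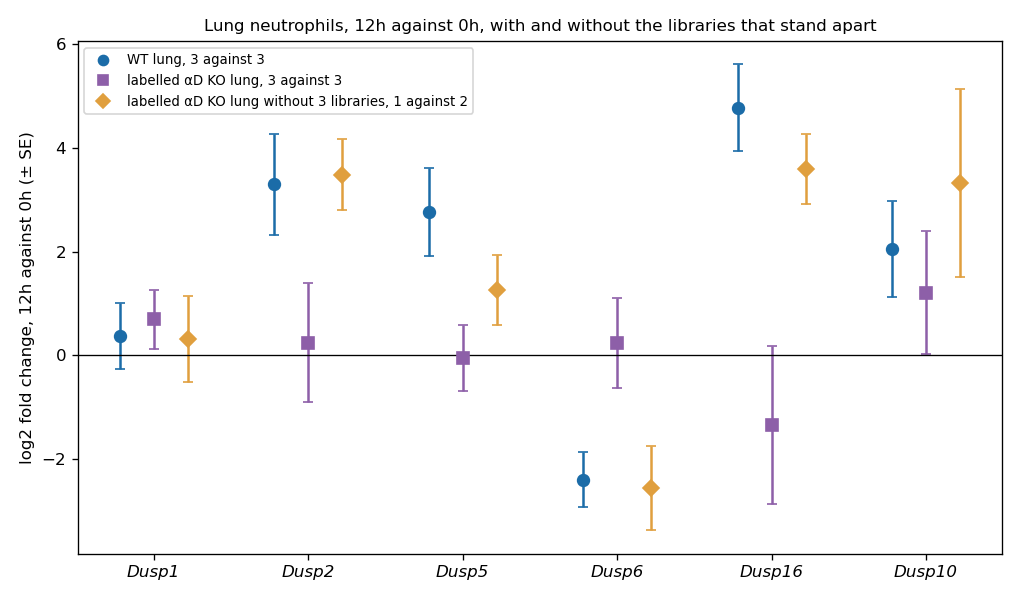
Log2 fold change ± SE between 12h and 0h in lung neutrophils for 6 phosphatases, for WT (circles), for labelled αD KO with all libraries (squares) and for labelled αD KO without 3 libraries (diamonds, 1 library against 2). Dusp16 lies at 4.78 in WT, at -1.34 in labelled αD KO with all libraries and at 3.59 without the 3.

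Lung neutrophils had higher levels of Dusp1, Dusp2 and Dusp5 than blood neutrophils after CLP, without overlap of the libraries in either genotype, although no member was a DEG with each file taken as a library. With the files of sample 1 summed (2 libraries against 2), 5 members were called in WT (Dusp1, Dusp2, Dusp4, Dusp5 and Dusp16), among 748 of 16740 genes, and 3 in labelled αD KO mice (Dusp1, Dusp5 and Dusp6), among 1441 of 17428 genes. This comparison asks what differs between neutrophils within the lung and those in the circulation. In WT at 12 hours, 0.0442% of 13590 genes were called, 6 in number (65 with the library number as a block), and 22.4% had groups that did not overlap (6.09% higher in lung), against 3 of 6 members. Dusp5 was at 691, 54.2 and 1109 CPM in lung and at 14.99, 12.5 and 15.4 CPM in blood. Its lowest lung value, in library 1b, was well above the highest blood value, and the log2 fold change was 5.34 ± 0.87, adjusted p = 0.0726. Dusp2 was at 572, 47.95 and 1143 CPM in lung and at 8.92, 27.7 and 6.402 CPM in blood (log2 fold change 5.13 ± 1.11, adjusted p = 0.116). Dusp1 was at 19914, 3844 and 26655 CPM in lung and at 2756, 1414 and 2967 CPM in blood (log2 fold change 2.80 ± 0.60, adjusted p = 0.116). Lung library 1b was the lowest in all 3 genes. Without it, 2916 of 14435 genes were called, and the adjusted p was 0.000990 for Dusp5, 0.00443 for Dusp2 and 0.00271 for Dusp1, and DESeq2, which called 6.99% of its genes, called all 3 with every library (5.0e-11, 1.8e-07 and 6.3e-05). Dusp16 overlapped between the tissues and was not called (log2 fold change 2.81 ± 0.77, adjusted p = 0.151), while DESeq2 called it (adjusted p = 0.00263). Without lung library 1b, edgeR also called Dusp16 (adjusted p = 0.00383) and the low Dusp4 (0.00725). Dusp6 overlapped as well (log2 fold change 0.65 ± 0.53, adjusted p = 0.526).

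In labelled αD KO mice at 12 hours, 0.0548% of 14592 genes were called (8 genes, or 21 when blocked by library number), and 28.8% did not overlap (10.3% higher in lung), against 3 of 6 members. Dusp5 was at 141, 183 and 137 CPM in lung and at 26.1, 32.4 and 4.72 CPM in blood (log2 fold change 3.07 ± 0.69, adjusted p = 0.0920). Dusp2 was at 64.7, 322 and 83.4 CPM and at 28.7, 45.03 and 7.07 CPM (log2 fold change 2.86 ± 0.90, adjusted p = 0.137). Dusp1 was at 9487, 7871 and 24265 CPM and at 6658, 2474 and 2531 CPM (log2 fold change 2.00 ± 0.59, adjusted p = 0.126). All lung values exceeded all blood values in these genes, which included septic lung library 1b. Without septic lung library 1b, 1691 of 15144 genes were called, among them Dusp1, Dusp5 and Dusp6, all higher in lung, and Dusp16, lower in lung (log2 fold change -2.39, adjusted p = 0.0242), but not Dusp2. The DESeq2 test, which called 7.17% of its genes, gave adjusted p = 0.000234 for Dusp5, 0.00775 for Dusp2, 0.0130 for Dusp1 and 0.0233 for Dusp6, and these 4 were called. Without lung libraries 1a and 2, which leaves 1 lung library and so is given with no test, the log2 fold changes were 3.22 for Dusp5, 3.68 for Dusp2 and 1.15 for Dusp1. Dusp6 had a log2 fold change of 2.08 ± 0.64 with all libraries and of -0.40 without those 2, and Dusp16 of -0.51 ± 0.85 and 0.42.

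At the baseline no gene of 15967 in WT and of 19000 in labelled αD KO mice was a DEG between lung and blood (0% called in both by edgeR, while 406 and 553 genes had an unadjusted p under 0.05 and DESeq2 called 42 and 113). In WT the members' log2 fold changes lay between -1.30 (Dusp10) and 1.23 (Dusp2), and the libraries of all 7 overlapped (5.68% of all genes tested did not). Dusp5 was at 43.5, 79.7 and 113 CPM in WT lung and at 65.00, 24.01 and 39.7 CPM in WT blood. In labelled αD KO mice Dusp5 was the only member without overlap, 1 of 6 (6.61% of all genes tested), at 63.2, 100.3 and 365 CPM in lung and 61.1, 26.03 and 32.7 CPM in blood. Its log2 fold change was 2.11 ± 0.66 with all libraries and 1.17 ± 0.45 without lung library 2. Dusp16 was at 4.32 ± 1.504 with that library and at 0.62 without it. Lung structural markers summed to 57.0 to 1142 CPM in the 12 lung libraries and to 7.88 to 283 CPM in the 12 blood libraries, without overlap at 12 hours in either genotype and at the baseline in labelled αD KO mice. Platelet markers at the baseline were lower in lung without overlap, at 8.02 to 26.6 against 39.8 to 132 CPM in WT and 9.38 to 17.5 against 24.98 to 667 CPM in labelled αD KO mice. Eosinophil and mast cell markers in WT at 12 hours summed to 3.17 to 12.0 CPM in lung and 16.96 to 23.9 CPM in blood. Most of the latter sum was Ear2 (group means 3.39 and 19.1 CPM), while Ccr3 was higher in lung (1.17 against 0.540 CPM). Neutrophil markers at 12 hours summed to 78712 to 143353 CPM in WT lung and 116284 to 212326 CPM in WT blood, and to 54689 to 91606 CPM and 122823 to 153225 CPM in labelled αD KO mice, without overlap in the latter. Csf3r went the other way, with higher group means in lung (2957 against 1693 CPM in WT, 8420 against 1666 CPM in labelled αD KO mice). So did Ly6g in WT (283 against 199 CPM) and Cxcr2 in labelled αD KO mice (3195 against 1664 CPM). The other neutrophil markers were lower in lung. The part of all these markers in the tissue differences was not tested.

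**Figure D4:**
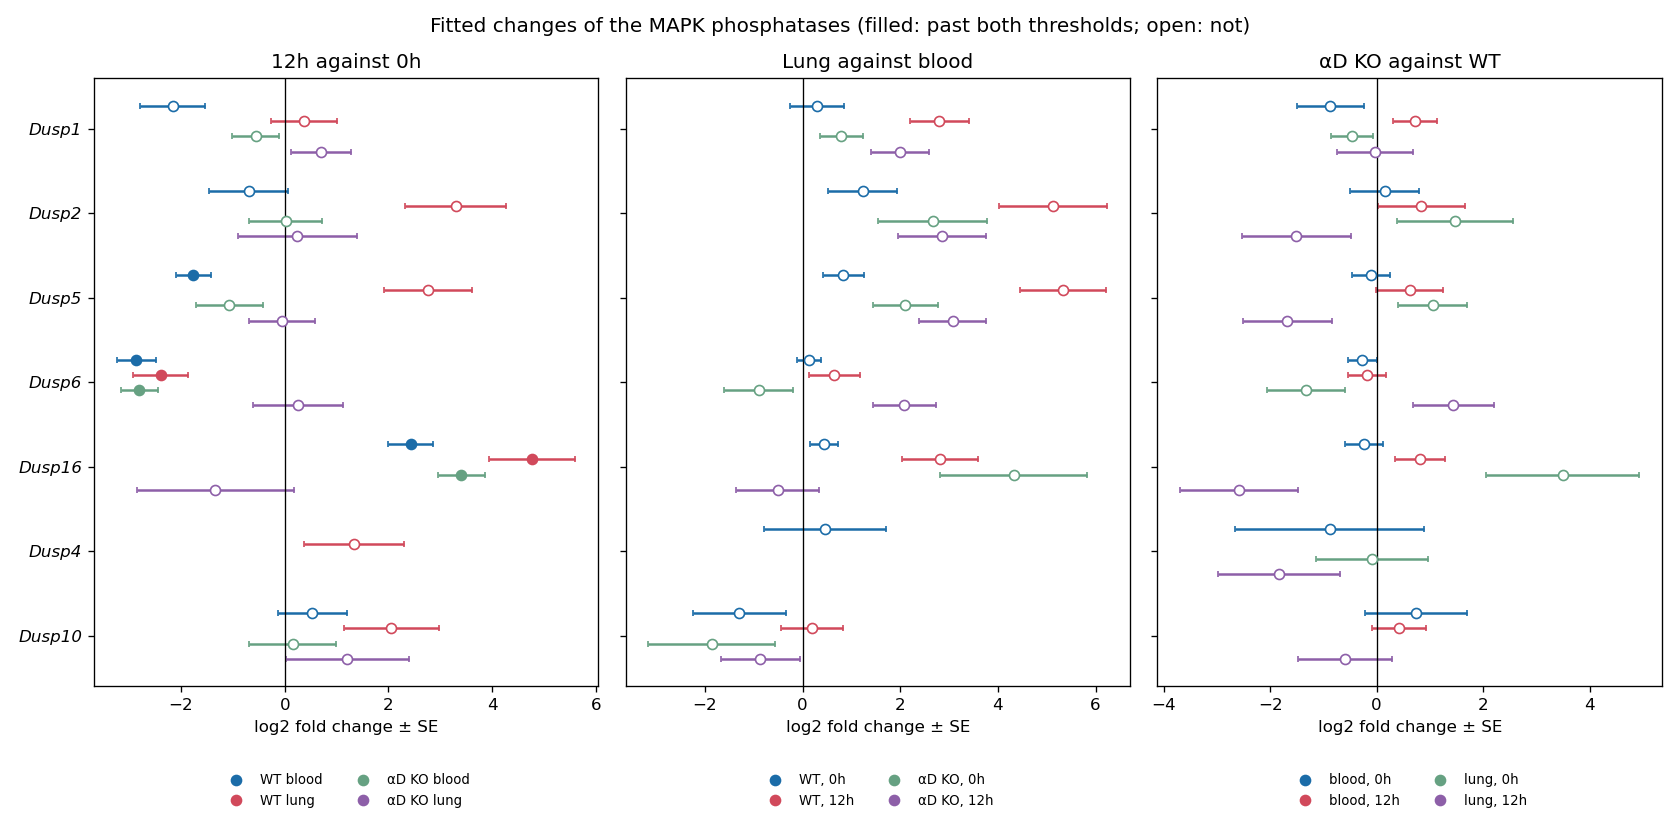
Log2 fold change ± SE of each phosphatase between 12h and 0h (left), lung and blood (middle) and labelled αD KO and WT (right), from edgeR with 3 libraries a group, with filled points where both thresholds were passed. Filled points occur only for Dusp5, Dusp6 and Dusp16 over time, and the right panel has none.

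Whether the change over time differed between the tissues or the genotypes was tested with interaction terms. With every library and the filter on low counts, edgeR called no gene in any of the 4 (adjusted p under 0.05, 0% of 19792 to 23497 genes). An unadjusted p under 0.05 was found for 232, 2432, 1290 and 2352 genes in blood, lung, WT and labelled αD KO. In the same order, DESeq2 called 1, 317, 106 and 262. In WT, where lung was compared with blood, the change of Dusp5 differed by 4.49 ± 1.08, adjusted p = 0.876, with -1.76 in blood and 2.77 in lung. DESeq2 called it, among 0.551% of its genes (4.55, adjusted p = 0.00332), and so did edgeR without WT lung 12-hour library 1b (adjusted p = 0.0190). Dusp2 differed by 4.07 ± 1.39 and Dusp1 by 2.44 ± 1.06 in the same direction, and Dusp6 by 0.34 ± 0.58. Between the genotypes in lung, Dusp16 differed by -6.22 ± 1.99, adjusted p = 0.410, which DESeq2 called, among 2.67% of its genes (-6.12, adjusted p = 0.0307). Without the 3 libraries that stand apart the difference was -1.12 ± 1.24, and that of Dusp6 went from 2.80 ± 1.16 to -0.09 ± 0.84. The change in lung was also compared with that in blood in labelled αD KO mice, where Dusp16 differed by -5.32 ± 1.76 with all libraries and by -0.17 ± 0.78 without those 3, and Dusp6 by 2.93 ± 1.06 and -0.07 ± 0.71. In blood the differences between the genotypes were 1.12 ± 0.68 for Dusp16, 0.22 ± 0.61 for Dusp6 and 1.76 ± 0.94 for Dusp1.

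Between labelled αD KO and WT mice no member was called in either tissue at either time. The DEGs in all were 2 of 17356 genes in blood at the baseline (0.0115%) and 0% of 12596 in blood at 12 hours, of 18232 in lung at the baseline and of 16764 in lung at 12 hours by edgeR. In the latter 3, 505, 340 and 1390 genes had an unadjusted p under 0.05, and DESeq2 called 14, 7 and 152, of which no member. In blood at the baseline, Dusp16 was at 9.88, 11.7 and 17.3 CPM in labelled αD KO mice, and the WT libraries were at 11.6, 13.8 and 18.7 CPM (log2 fold change -0.23 ± 0.35), and Dusp6 differed by -0.27 ± 0.27. Dusp5 differed by -0.11 ± 0.36. Dusp1 was at 7243, 3674 and 3849 CPM in labelled αD KO blood and 14773, 2427 and 11092 CPM in WT blood (log2 fold change -0.87 ± 0.63), with overlap. In blood at 12 hours the log2 fold changes were 0.81 ± 0.47 for Dusp16, 0.72 ± 0.41 for Dusp1 and -0.18 ± 0.36 for Dusp6. The groups of every tested member overlapped in blood at both times (2.98% and 7.92% of all genes tested did not).

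In lung the differences between the genotypes were computed with and without the libraries that stand apart. At the baseline Dusp16 differed by 3.49 ± 1.43 with all libraries and by -0.27 ± 0.35 without labelled αD KO library 2. Dusp2 differed by 1.47 ± 1.09 and -0.71, and Dusp5 by 1.05 ± 0.65 and 0.10, so that Dusp16 and Dusp2 changed sign. Dusp6 was lower without overlap, at 203, 263 and 32.7 CPM against 563, 415 and 360.3 CPM, 1 of 6 members (6.82% of all genes tested). Its log2 fold change was -1.33 ± 0.74, adjusted p = 0.983 with all libraries and -0.89 ± 0.37 without library 2 (adjusted p = 0.963). Erythroid markers summed to 1895 to 3523 CPM in labelled αD KO lung and to 88.9 to 959 CPM in WT lung at the baseline, without overlap, and their part was not tested. At 12 hours, Dusp16 differed by -2.58 ± 1.10, Dusp5 by -1.67 ± 0.83, Dusp2 by -1.51 ± 1.03 and Dusp6 by 1.44 ± 0.76, with overlap in all members (10% of all genes tested did not overlap). Without labelled αD KO libraries 1a and 2, which leaves 1 library, Dusp16 came to -1.39, Dusp5 to -1.37, Dusp2 to -0.49 and Dusp6 to -0.88. With libraries 1a and 2 of each genotype alone, 5 members passed both thresholds in this comparison, among 4686 of 15574 genes. Dusp2, Dusp4, Dusp5 and Dusp16 were then lower in labelled αD KO lung and Dusp6 was higher (log2 fold change -4.92 for Dusp16 and 2.31 for Dusp6). The labelled αD KO libraries in that setting are the 2 that lay near the baseline, at 0.0994 and 0.188 on the axis above, so it is no separate evidence of a difference between the genotypes. The setting leaves out library 1b of both genotypes. Leaving out WT library 1b alone gave 209 genes, leaving out labelled αD KO library 1b alone gave 8, and neither called a member.

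Dusp4 and Dusp10 were at a low level, with means over the 24 libraries of 0.622 and 1.22 CPM. Dusp4 had no count in 6 libraries, among them all 3 of WT blood at 12 hours, and its highest group mean was in WT lung at 12 hours, with 4.09, 0.160 and 2.15 CPM. It passed the filter on low counts in 5 of the 12 comparisons between groups, and its log2 fold change was 1.34 ± 0.97 between 12 hours and the baseline in WT lung. A count of 0 allows up to 3 counts per library, which is 0.151 to 0.209 CPM in the libraries of WT blood at 12 hours, so that Dusp4 was not detectable there at this depth. Dusp10 went from 1.02, 0.719 and 1.05 CPM to 2.16, 1.204 and 1.32 CPM in WT blood and from 0.338, 0.721 and 0.0810 CPM to 1.06, 0.881 and 3.196 CPM in WT lung, without overlap in both. Neither passed the test (log2 fold changes 0.53 ± 0.66, adjusted p = 0.625 and 2.05 ± 0.92, adjusted p = 0.198), and with 2 to 98 counts per library its error was large.

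The kinases and responses of the same pathway were described from lists written from general knowledge. The shares of all genes tested that were called, to be read beside each count, were 7.75% higher and 5.75% lower in WT blood, 5.24% and 3.78% in WT lung, and 3.75% and 4.99% in labelled αD KO blood. In WT lung over time no gene was called without baseline library 1a or 2 or septic library 1a. The WT lung calls over time given below were therefore all lost in those fits. Among MAP kinases, 2 of 9 tested were higher in WT blood after CLP and none was lower, and the same counts held for WT lung (2 of 9) and labelled αD KO blood (2 of 8). They were Mapk13, which encodes p38 delta, and Mapk7, which encodes ERK5. Mapk13 went from 60.5 ± 27.4 to 436 ± 90.1 CPM (SD, n = 3) in WT blood (log2 fold change 2.67 ± 0.38, adjusted p = 0.00626). Mapk7 went from 16.2 ± 1.28 to 64.7 ± 31.4 CPM in WT lung (log2 fold change 1.89 ± 0.33, adjusted p = 0.0167). None of the 7 MAP kinase kinases was called in the 3 comparisons. Among MAP3 kinases, 2 rose and 2 fell of 17 in WT blood, 3 rose and 2 fell of 18 in WT lung, and 2 rose and 2 fell of 17 in labelled αD KO blood. Map3k5, which encodes ASK1, a stress kinase upstream of JNK and p38, fell in all 3, for example from 217 ± 54.2 to 43.3 ± 17.6 CPM in WT blood (log2 fold change -2.45 ± 0.44, adjusted p = 0.0131). Map3k8, which encodes TPL2, the activator of the ERK branch downstream of toll-like receptors, rose from 80.4 ± 26.2 to 269 ± 117 CPM in WT blood (log2 fold change 1.52 ± 0.37, adjusted p = 0.0340) and from 77.4 ± 15.9 to 330.1 ± 99.1 CPM in labelled αD KO blood (log2 fold change 1.86 ± 0.28, adjusted p = 0.00881). Map3k6 was at 0.263, 0.773 and 0.0810 CPM in WT lung at the baseline and at 72.1, 1.52 and 49.3 CPM at 12 hours (log2 fold change 6.58 ± 1.31, adjusted p = 0.0241).

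Downstream of the MAP kinases, 1 kinase rose and 3 fell of 10 tested in WT blood (13.5% of all genes called in either direction), and 3 rose and 2 fell in WT lung (9.02%). Mapkapk2, the kinase through which p38 stabilises cytokine transcripts, rose in WT lung from 150.2 ± 53.8 to 1279.6 ± 958 CPM (log2 fold change 2.92 ± 0.60, adjusted p = 0.0260). Its septic libraries 1a, 1b and 2 were uneven, at 2287, 381 and 1170 CPM. Rps6ka5, encoding the nuclear kinase MSK1, fell in WT blood, WT lung and labelled αD KO blood, with log2 fold changes of -1.80 ± 0.32, -2.26 ± 0.40 and -1.45 ± 0.37. Of ERK-responsive transcripts, 1 rose and 3 fell of 11 in WT blood, none rose and 2 fell of 11 in labelled αD KO blood, and 3 rose and 1 fell of 12 in WT lung. Fos fell in WT blood from 3818 ± 1829 to 431 ± 169 CPM (log2 fold change -3.34 ± 0.50, adjusted p = 0.00738) and in labelled αD KO blood (-2.02 ± 0.45, adjusted p = 0.0339), and Fosl1, also of the AP-1 family, rose in WT lung from 1.35, 1.24 and 4.37 CPM to 473, 6.88 and 302 CPM (log2 fold change 6.59 ± 1.32, adjusted p = 0.0242). The medians of this list were -1.11 in WT blood and 0.52 in WT lung, against -0.15 and 0.03 over all genes. By edgeR with every library, Fosb was the gene of these lists that was called between lung and blood, and the other genes were not counted under other settings. It was higher in lung at 12 hours in WT (log2 fold change 4.61 ± 0.51, adjusted p = 0.0484) and in labelled αD KO mice (5.04 ± 0.51, adjusted p = 0.0299). Without labelled αD KO lung libraries 1a and 2 the latter was 4.01 ± 0.71, with 1 lung library and no test. The WT call was lost without any 1 library other than lung 1b (adjusted p up to 0.544), and the labelled αD KO call without library 1a or 2 of either tissue (up to 0.355).

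The other brakes on the pathway were counted in the same way, beside 13.5% of all genes called in WT blood, 9.02% in WT lung and 8.75% in labelled αD KO blood. None of the other typical MAPK phosphatases (2 or 3 tested) and none of the atypical dual specificity phosphatases (8 to 10 tested) was called over time in these 3 comparisons. Of Sprouty and Spred genes, inhibitors of the Ras to ERK step, Spred1 and Spred2 rose in WT lung, 2 of 5, from 1.03 ± 0.632 to 7.799 ± 4.12 CPM and from 0.883 ± 0.600 to 7.97 ± 3.74 CPM. Of the scaffolds, Arrb1 fell in all 3 comparisons (log2 fold changes -1.42 ± 0.28, -1.97 ± 0.45 and -1.82 ± 0.34), and Arrb2 rose in WT blood and labelled αD KO blood (1.505 ± 0.36 and 1.35 ± 0.35). Both encode beta-arrestins, which bind chemokine receptors and MAP kinases. Among glucocorticoid-responsive transcripts, 2 rose and 2 fell of 8 in WT blood, 2 rose of 8 in WT lung and 1 rose of 8 in labelled αD KO blood. Klf9 rose in all 3 (log2 fold changes 2.95 ± 0.36, 4.94 ± 0.64 and 3.56 ± 0.56), Fkbp5 rose in WT lung (2.32 ± 0.54), and Cebpd and Zbtb16 fell in WT blood (-1.97 ± 0.39 and -3.61 ± 0.74). Dusp1, a target of the same receptor, was not called in these comparisons by the edgeR test used for the lists, but in WT blood its call changed with the settings given above, the block and DESeq2 among them.

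**Figure D5:**
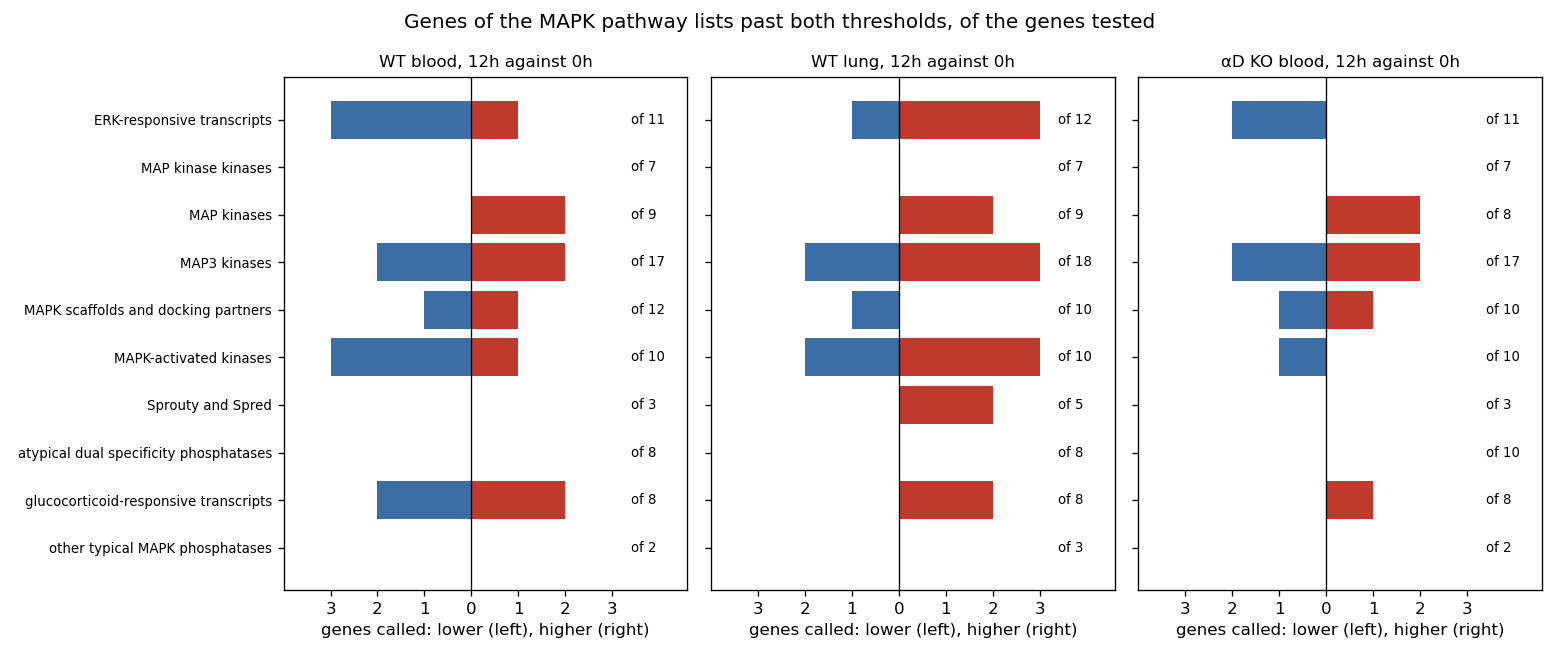
Number of genes of each MAPK pathway list that were called lower (bars to the left) or higher (bars to the right) at 12h than at 0h, with the number tested beside each row. MAP kinases have 2 genes called higher in each panel, and MAP kinase kinases and the other 2 phosphatase lists have none.

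The members fell into patterns of their own over the 24 libraries, given here as Spearman rho of log2 CPM and as description only, since the libraries share groups, depth and scaling. Dusp5 went with Dusp2 (0.89) and with Dusp1 (0.83), and Dusp16 went against Dusp6 (-0.80). Dusp16 had little relation to Dusp1 (0.12) or Dusp5 (0.17). Among 8231 other genes with a mean of at least 5 CPM, those most like Dusp16 were Cxcl3, a neutrophil-attracting chemokine, Traf1, a TNF receptor adaptor, and Azin1, a regulator of polyamine synthesis (rho 0.959, 0.953 and 0.938). Cxcl3 had means of 8.76 and 1823 CPM in WT lung at the baseline and at 12 hours. Those most like Dusp6 were Arl11, Vgll4 and Bri3bp (0.963, 0.952 and 0.939), with Arl11 at 72.8 and 21.1 CPM in WT blood. Those most like Dusp5 were Il23a, a subunit of interleukin-23, G0s2 and Gadd45b (0.918, 0.917 and 0.908), and Il23a was at 0.408 CPM in WT blood and 82.7 CPM in WT lung at 12 hours. Dusp2 was most like Otulin, Klf2 and Plk3 (0.867, 0.860 and 0.858), and Dusp1 most like Gm11698, Mir7678 and Coq10b (0.926, 0.924 and 0.921). For the low Dusp4 and Dusp10 the nearest genes were Rab11fip1, Atg2a and Rasip1 (0.862, 0.845 and 0.844) and Timm50, Acad9 and Ssr2 (0.918, 0.917 and 0.880).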

How the data were processed

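RNA from sorted neutrophils was amplified as full-length cDNA and sequenced by the authors. Per the labels, reads were trimmed with Trimmomatic 0.36 and mapped with STAR 2.5.2b to GRCm38/mm10. Unique reads within exons were counted, and the deposited values are raw counts per gene for 49315 genes, neither normalized nor filtered. The counting tool is not given in the sources used here. Symbols were matched for 48970 gene IDs.

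The 24 files were grouped by the labels into 8 groups of 3 libraries. Counts were tested with edgeR 4.0.16 (R 4.3.3) by filterByExpr, TMM and its two-sided quasi-likelihood F test, fitted for each comparison on its own libraries, with Benjamini-Hochberg adjustment over all genes tested and no p adjusted over the members alone. Interaction terms were called at an adjusted p under 0.05. An exact permutation test of 3 against 3 libraries cannot go below p = 0.1 and was not used. CPM values were scaled by TMM over all 24 libraries (factors 0.557 to 1.93), and RPKM divides them by the exon length in the files. CPM ranks used scipy 1.17.1 and pandas 2.3.3 in Python 3.11.15.

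Alternatives were RLE scaling, no filter, at least 10 counts in every library, DESeq2 1.42.0, all 8 groups in a single fit, sample 1 summed, libraries 1a and 2 alone, each library left out, the library number as a block, the adjusted p alone and the fits without the libraries that stand apart. For the 2 interactions that hold those libraries, the last was chosen after seeing the data. Library numbers were checked by the correlation, across genes, of deviations from the group means. It was above 0.1 for all 3 numbers in WT blood over time (0.457, 0.588 and 0.114), labelled αD KO lung over time (0.173, 0.413 and 0.361), labelled αD KO against WT blood at the baseline (0.234, 0.748 and 0.266) and lung against blood at 12 hours in WT (0.191, 0.328 and 0.178) and in labelled αD KO mice (0.148, 0.342 and 0.202). The labels state no pairing.

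All members, Itgad, up to 3 called genes per list and comparison (smallest adjusted p) and the 3 genes most like each member (prior count 1) are named. The members and lists were chosen with earlier results of these data known. Promoters are RefSeq's (GRCm38.p6). They matched 6 members, and Dusp4 is named only. Intervals and SEs cover the spread between libraries only.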

Additional observations from a re-analysis of the deposited data

How the results depend on the processing

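The number of members called over time was 3 in WT blood, 2 in WT lung, 2 in labelled αD KO blood and 0 in labelled αD KO lung. Leaving out 1 library gave 0 to 4, 0 to 4, 0 to 2 and 0 to 0. With all 8 groups in a single fit the first 3 counts were 1, 1 and 0, and with libraries 1a and 2 alone WT blood and WT lung had 6 each. In WT lung 4 members were called with no filter on low counts, by DESeq2 and with sample 1 summed. Over all genes, 1975, 1340, 1238 and 0 were called in the 4 comparisons. Libraries 1a and 2 alone gave 3201 of 13839 in WT blood and 5299 of 14258 in WT lung, all 8 groups gave 1118, 447 and 64 in the first 3, and no filter gave 944 in WT blood and 23 in labelled αD KO lung. Sample 1 summed gave 2337 in WT lung and 635 in labelled αD KO blood, and the block 893 in WT lung. Without 1 library the counts were 2 to 2804, 0 to 3941 and 74 to 1414 in the first 3. Without the libraries that stand apart, Dusp16 in labelled αD KO lung reversed to 3.59. That fit has 1 library against 2, chosen by their values, so that 2 members past its thresholds are no result of a test.

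No member was called between lung and blood. At 12 hours, WT had 4 with no filter, 4 by DESeq2, 1 with all 8 groups, 5 with sample 1 summed and 5 with libraries 1a and 2 alone (0 to 5 without 1 library). Labelled αD KO mice had 4, 4, 3 with sample 1 summed and 5 with libraries 1a and 2 alone (0 to 4 without 1 library). The counts over all genes in WT, 6 at first, were 650 with no filter, 10 with RLE scaling, 65 with the block, 748 of 16740 with sample 1 summed, 3779 of 13385 with libraries 1a and 2 alone and 2916 without lung library 1b. In labelled αD KO mice, 8 became 1293 with no filter, 21 with the block, 32 with all 8 groups, 1441 of 17428 with sample 1 summed, 4881 of 14240 with libraries 1a and 2 alone and 1691 without lung library 1b. Between the genotypes in lung at 12 hours, 5 members and 4686 of 15574 genes were called with libraries 1a and 2 alone, of which the labelled αD KO libraries are the 2 that lay near the baseline, and 207 genes with no filter, 209 without WT library 1b, 8 without labelled αD KO library 1b and 2 with all 8 groups, none a member in the latter 4. Of the interactions, DESeq2 called 1 member for genotype by time in lung and 1 for tissue by time in WT, and the latter had 0 to 1 without 1 library. The causes were not tested.

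With the library number as a block, Dusp1 was also called in WT blood (-1.91, adjusted p = 0.0260, edgeR), which made 4, and no other member's call changed. Dusp1 was called there by DESeq2, with RLE scaling, with at least 10 counts and with sample 1 summed as well. Of 1527 recomputed fold changes of members, 1335 kept their direction and side of the threshold, 30 lost and 69 gained a call, 92 changed sign with no call in either fit, and 1 (Dusp16 in labelled αD KO lung) changed sign in the fit of 1 library against 2 described above. Over all genes, DESeq2 called 2372 in WT lung and 2342 in labelled αD KO blood over time, against 1340 and 1238 by edgeR. Between lung and blood at 12 hours it called 869 in WT and 1249 in labelled αD KO mice, against 6 and 8, and at the baseline 42 and 113, against 0 by edgeR. Between the genotypes it called 5 and 14 in blood at the baseline and 12 hours, against 2 and 0, and 7 and 152 in lung, against 0. For the interactions it called 1 and 317 (genotype by time in blood and lung) and 106 and 262 (tissue by time in WT and labelled αD KO), against 0. RLE scaling moved the median log2 difference of all genes by over 0.1 only for tissue by time, from 0.56 to 0.73 in WT and from 0.44 to 0.64 in labelled αD KO mice. Low counts limit what can be said of Dusp4 and Dusp10.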
